A study of Mus musculus with 12 samples.

Results

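The cytosolic ribosomal protein genes were examined by RNA-seq in CD24hiTCRβlo pre-selection CD4+CD8+ double-positive (DP) thymocytes of mice with altered Bcl11b, a zinc finger transcription factor of the T cell lineage. Members were the rows of the deposited expression table whose symbol begins with Rpl or Rps followed by a number, with at most an a, x or l suffix and a further digit, together with Rplp0, Rplp1, Rplp2 and Rpsa. Of the 23234 rows, 83 fitted this naming rule, and 81 of them averaged at least 1 FPKM (fragments per kilobase of transcript, scaled to the size of the library) over the 12 libraries and were kept. The excluded rows were Rpl10l, listed at 0 in each library, and Rpl39l, with a mean of 0.273 FPKM and a highest value of 1.06 FPKM. The kept members comprised 49 large subunit genes, the 3 stalk genes among them, and 32 small subunit genes.

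All mice were C57BL/6 and the cells came from thymus. The groups were 5 wild-type libraries from newborns, 3 Bcl11bm/m libraries from newborns, and 4 Bcl11bfl/fl:Cd4-Cre libraries from mice whose age is not given, so age and genotype cannot be told apart for that last group. Bcl11bm/m mice are homozygous for an allele with a frameshift that came from the targeting construct, which removes the last zinc finger from the protein; they die as neonates and serve as a hypomorph. In Bcl11bfl/fl:Cd4-Cre mice a floxed allele is deleted by Cre under Cd4 control, so that earlier stages keep the gene. Genotypes follow the sample titles, because the free-text descriptions of the wild-type and Cd4-Cre samples give a different genotype. No label says whether replicates came from separate mice, so p-values measure the spread between these libraries only.

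Bcl11b itself was listed at 132 to 292 FPKM in wild-type, 430 to 482 FPKM in Bcl11bm/m and 115 to 140 FPKM in the Bcl11bfl/fl:Cd4-Cre libraries. The gene total does not resolve the frameshift or the floxed exon, so it does not check the labels. Markers of the sorted stage were abundant in every library, with a summed level over 11 pre-selection DP genes of 5502 to 7445 FPKM in wild-type, 4120 to 4629 FPKM in Bcl11bm/m and 4029 to 5921 FPKM in the Bcl11bfl/fl:Cd4-Cre libraries. Of these 11 genes, 6 were lower in Bcl11bm/m than in wild-type by limma, among them Ptcra (7.81 against 38.2 FPKM), Cd4 (299 against 598 FPKM) and Cd24a (79.8 against 182 FPKM), and 2 were lower in the Cd4-Cre group, Cd24a (80.2 FPKM) and Themis (101 against 140 FPKM). Over all features tested, 7.39% were called lower in Bcl11bm/m and 9.86% in the Cd4-Cre group. Low values of the table move in steps, and these put the depth at an estimated 2790000 to 6810000 fragments in the newborn libraries and at 10730000 to 44970000 fragments in the Bcl11bfl/fl:Cd4-Cre libraries. A factor of 2 cannot be settled in these estimates, so the nearest libraries of these ranges cannot be ordered. Estimated depth ran with group, and its part in the results was not tested.

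A ribosome has a small subunit, which decodes the mRNA, and a large subunit, which joins the amino acids, and each holds a single copy of almost every one of its proteins. Ribosomal protein mRNAs are among the most abundant in growing cells, and many begin with a C followed by a run of pyrimidines, the 5′ terminal oligopyrimidine (TOP) stretch, through which mTOR signalling and LARP1 regulate their translation and stability as a group. In thymocytes, the losses of Rpl22 and of its paralogue Rpl22l1 are known to affect αβ T cell development and progenitors in different ways. Mammalian genomes carry many retrotransposed intronless copies of these genes, and short sequencing reads from a gene and from such a copy can be hard to separate.

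The following 27-base windows around the annotated transcription start, read from RefSeq promoter sequence on build GRCm38.p6, are shown because they show the TOP stretch and its absence at the listed start. Capitals mark the longest run of C and T that begins with C within 5 bases of the start and is at least 5 bases long. Rpl38, Rps6 and Rps27 have such a run. Rpl23, which departs most reproducibly between the mutants below, has none in this window. Neither have Rplp0, Rpl26, Rpsa and Rpl10 in theirs, and a relation between such a run and any departure was not tested.
Rpl38 (chr11:114668568-114668594, plus strand): ggaagcctcgttCTTTCCCCgttctct
Rps6 (chr4:86857353-86857379, minus strand): cggaagtcgggCCTCTTTTTCgtgacg
Rps27 (chr3:90213634-90213660, minus strand): tccgctttcgCTCCTTTCCggcggtga
Rpl23 (chr11:97782425-97782451, minus strand): aggtccggtcacgtggctgagtgggcg

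Promoter windows of 250 bases before to 50 bases after a start were available for 60 of the 81 members, in 72 windows. A C-led pyrimidine run of at least 5 bases at the start was present in 31 of these 72 windows, or 43.1%, against 18.3% of all 32851 windows in the table. Letter strings were then sought on both strands across each window. CCGGAA, the core bound by ETS factors, was found in 47.2% of member windows against 14.9% of all, GCCATNTT, the YY1 string, in 23.6% against 6.1%, and TCTCGCGA in 15.3% against 1.0%. CTTTCC was found in 48.6% against 26.6%, GGAAG, which can overlap CCGGAA, in 93.1% against 71.4%, CTTTTC in 25% against 21.8%, and the E-box CACGTG in 11.1% against 7.2%. TGTGGT, the RUNX core, and TATAAA were the rarer strings in the members, at 6.9% against 16.8% and 9.7% against 13.6%. These are descriptions of letters, and no factor binding was measured here.

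Near-identical copies were then mapped, because fragments of a gene and of such a copy may be listed on either row; how fragments were assigned was not tested. On build NCBIM37 (mm9), with GENCODE vM1 gene models for 80 members (Rpl41 is not in that annotation), coding sequences were aligned to the genome and intronless matches of at least 95% identity over at least 90% of the length were counted. The median over members was 5.5 such copies and Rpl21 had 54. At least 1 copy of 99% identity or more was found for 55 members, only less similar copies for 20, and none for 5. The expression table listed 13 rows lying over such copies. For 4 members the copy row had a mean well above that of the gene row: Rps27 (mean 13.3 FPKM) beside Gm9846 (1251 FPKM), Rpl30 (24.7 FPKM) beside Gm12191 (1151 FPKM), Rpl26 (14.0 FPKM) beside Gm15772 (722 FPKM), and Rpl34 (90.8 FPKM) beside Rpl34-ps1 (689 FPKM).

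These pairs differ by very few coding bases, so within the coding sequence fragments that miss those bases match both; untranslated regions and splice junctions were not compared. The sequences below are the 25 bases around 3 of the differences, shown for the pairs Rpl34 and Rpl26, with the differing base in capitals, the position counted from 1 at the A of the start codon and the gene's base written before the copy's. Rpl34 (354 coding bases) and Rpl34-ps1 (chr6:71074604-71074957) differ by T132C and C318G. Rpl26 and Gm15772 (chr5:3236431-3236868) differ by C177T and T288C. Rpl30 and Gm12191 (chr11:49492212-49492559) differ by G96A alone, and Rps27 and Gm9846 (chr9:114891571-114891825) have 0 differences over 255 coding bases.
Rpl34 at T132C: agcacctaaatcTgcatgtggcgtg
Rpl34-ps1 at T132C: agcacctaaatcCgcatgtggcgtg
Rpl34 at C318G: cgttgtgaaagtCttgaaggcacaa
Rpl34-ps1 at C318G: cgttgtgaaagtGttgaaggcacaa
Rpl26 at C177T: tcaggttgttcgCggacactacaaa
Gm15772 at C177T: tcaggttgttcgTggacactacaaa

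The ribosomal protein genes were expressed far above the typical gene. The median of the member means was 475 FPKM (quartiles 303 and 891), against 12.7 FPKM over the 10780 features tested. Of the 81, 17 averaged at least 1000 FPKM and 71 at least 100 FPKM. FPKM is a level per length, so levels are set side by side between genes only roughly, given near-identical copies and an uncertain library chemistry. The 5 highest were Rpl28 (1765 FPKM), Rpl11 (1476 FPKM), Rpl23a (1402 FPKM), Rps26 (1396 FPKM) and Rps10 (1211 FPKM). Rpl28 ranged from 1320 to 2520 FPKM in wild-type, from 1220 to 2080 FPKM in Bcl11bm/m and from 1520 to 1790 FPKM in the Bcl11bfl/fl:Cd4-Cre libraries, so the groups overlapped. The 5 lowest were Rpl30 and Rpl26, Rps27, Rpl22l1 (9.35 FPKM) and Rpl3l (1.34 FPKM), of which the first 3 have a copy row at a far higher level.

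**Figure D1:**
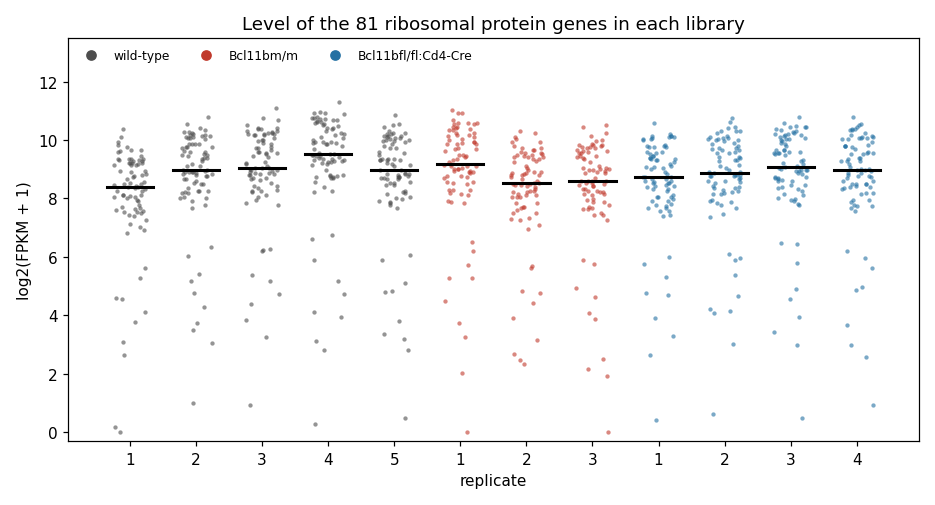
Each point is a member's log2(FPKM + 1) in a library, with libraries on the x axis by replicate number and colour for the group, and the bar marks the median of the 81 members. The bars run from 8.40 in wild-type replicate 1 to 9.51 in wild-type replicate 4, a wider span than separates the group means.

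As a share of all FPKM in a library, the members took 9.04, 11.7, 12.8, 14.2 and 11.7% in the 5 wild-type libraries. In Bcl11bm/m the shares were 13.3, 9.42 and 10.6%, and in Bcl11bfl/fl:Cd4-Cre they were 11.9, 12.1, 13.7 and 13.2%. The group means were 11.9 ± 1.91% (SD, n = 5), 11.1 ± 1.97% (SD, n = 3) and 12.7 ± 0.893% (SD, n = 4), and the groups overlapped. Since bulk libraries were compared, fewer cells of a type and less RNA per cell cannot be told apart.

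The members moved together from library to library. Wild-type replicate 1 was the lowest of its group for 79 of the 81 members and wild-type replicate 4 the highest for 76. Within Bcl11bm/m, replicate 1 was highest for 78 and replicate 2 lowest for 73. Within Bcl11bfl/fl:Cd4-Cre, replicate 3 was highest for 58 and replicate 1 lowest for 63. The member median was 336, 499, 527, 727 and 499 FPKM in wild-type, 575, 365 and 389 FPKM in Bcl11bm/m, and 422, 469, 540 and 505 FPKM in the Bcl11bfl/fl:Cd4-Cre libraries. Within-group coefficients of variation had medians of 28.7, 29.1 and 12.2% over the members in these 3 groups. Short RNA rows (microRNA, snoRNA and similar names), which share the FPKM denominator, took 17.1% in wild-type replicate 1, the library with the lowest member share, and 7.03 to 15.0% in the other newborn libraries; their part in these swings was not tested.

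Across the 12 libraries, each member's log2 level was set against the median of the other members, as a description over libraries that share a scaling. The median correlation was 0.94, and 64 members reached 0.9. The 17 below it included the 4 genes with a copy row at a far higher level (Rps27 at -0.17, Rpl34 at 0.14, Rpl30 at 0.34, Rpl26 at 0.37) and Rpl3l at -0.25. Rpl23 was at 0.68. After removal of each group's mean, Rpl23 rose to 0.99, while Rps27, Rpl30, Rpl26 and Rpl34 stayed between -0.27 and 0.39. Rpl23 thus followed the other members closely among libraries of one group, and set itself apart between groups. With group means removed, 71 members reached 0.9, so a rise was not particular to Rpl23.

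Bcl11bm/m was compared with wild-type on log2(FPKM + 1) with limma, fitted to all 10780 features with Benjamini-Hochberg adjustment. The median member difference was -0.21, against -0.02 over all features, and 74 of the 81 members lay below 0, against 52.3% of all features. This shift lay within the swings between replicates, whose member medians had an SD of 0.39 in wild-type and 0.35 in Bcl11bm/m on the log2 scale. Leaving out Bcl11bm/m replicate 1 took the median difference to -0.42, leaving out replicate 2 to -0.08. With median-ratio scaling the median was -0.19 (all features -0.01) and without short RNA rows -0.11 (all features 0.07), and over all the alternatives it ran from -0.42 to -0.05. At an adjusted p under 0.05, 17.3% of all features were called, 9.92% higher and 7.39% lower, and 1 member, Rpl3l, higher. Rpl3l passed the 1 FPKM filter only through its level in Bcl11bm/m, so nothing is read from its call here or below. Of the other 80 members 0 were called by limma in either direction and 0 had an unadjusted p under 0.05, a threshold met by 30.3% of all features.

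The difference was of similar size in both subunits, with a median of -0.19 over the large and -0.24 over the small subunit genes. The stalk proteins Rplp0, Rplp1 and Rplp2, which recruit translation factors to the large subunit, had differences of -0.46, -0.37 and -0.27, with adjusted p from 0.356 to 0.625 in limma. Rplp0 stood at 591, 870, 938, 1160 and 846 FPKM in wild-type and at 968, 483 and 525 FPKM in Bcl11bm/m. Bcl11bm/m replicates 2 and 3 were thus below every wild-type library and replicate 1 was above all but wild-type replicate 4. Rpl5 and Rpl11, which with 5S rRNA bind Mdm2, had differences of -0.19 and 0.01, and Rps6, the substrate of S6 kinase, of -0.25. Rps14 and Rps19, small subunit genes mutated or deleted in human anaemias, had -0.47 and -0.42, and Rpsa, the laminin receptor homologue at the mRNA exit, -0.38. None of these passed the test.

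Bcl11bfl/fl:Cd4-Cre against wild-type gave a median member difference of -0.07, against -0.09 over all features, with 55 of 81 members below 0 against 60.3% of all features. The sign of this median turned with the scaling, to 0.04 with median-ratio scaling (all features 0.01) and 0.08 when short RNA rows were removed (all features 0.04), so no direction is given. The SD between libraries of the Cd4-Cre group was 0.15 on the same scale. Of all features 14.5% were called, 4.65% higher and 9.86% lower, and of the members 1, Rpl34, which was higher. Higher calls made up 32.0% of all calls in this comparison, 47.3% with median-ratio scaling and 53% without short RNA rows. The count of members called lower was 0 in limma, and Rpl34 was again the only member with an unadjusted p under 0.05. The stalk genes had differences of -0.03 (Rplp0), 0.04 (Rplp1) and -0.28 (Rplp2), and Rpl5, Rpl11, Rps6, Rps14, Rps19 and Rpsa lay between -0.35 and -0.04.

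In the direct comparison of Bcl11bm/m with Bcl11bfl/fl:Cd4-Cre, which shares libraries with both comparisons above, the median member difference was -0.13, against 0.09 over all features. It was -0.23 with median-ratio scaling (all features 0.00) and -0.18 without short RNA rows (all features 0.05). Below 0 were 62 of 81 members, against 38.8% of all features. Here 10.2% of all features were called, 7.63% higher and 2.6% lower, and 2 members, Rpl3l (higher in Bcl11bm/m) and Rpl34 (lower). Higher calls made up 74.6% of all calls, 54.6% with median-ratio scaling and 65.3% without short RNA rows. Groups did not overlap for these and for Rpl10 and Rpl23, 4 of 81 members against 26.7% of all features. This comparison moved in either direction with the Bcl11bm/m library that was left out. Without Bcl11bm/m replicate 1 the median difference was -0.34 and 9 members were called, against 7.49% of all features in that fit, and 8 of the 9 were lower: Rpl7, Rpl10, Rpl22l1, Rpl31, Rpl34, Rplp0, Rps14 and Rps19. Without Bcl11bm/m replicate 2 the median was 0.02.

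**Figure D2:**
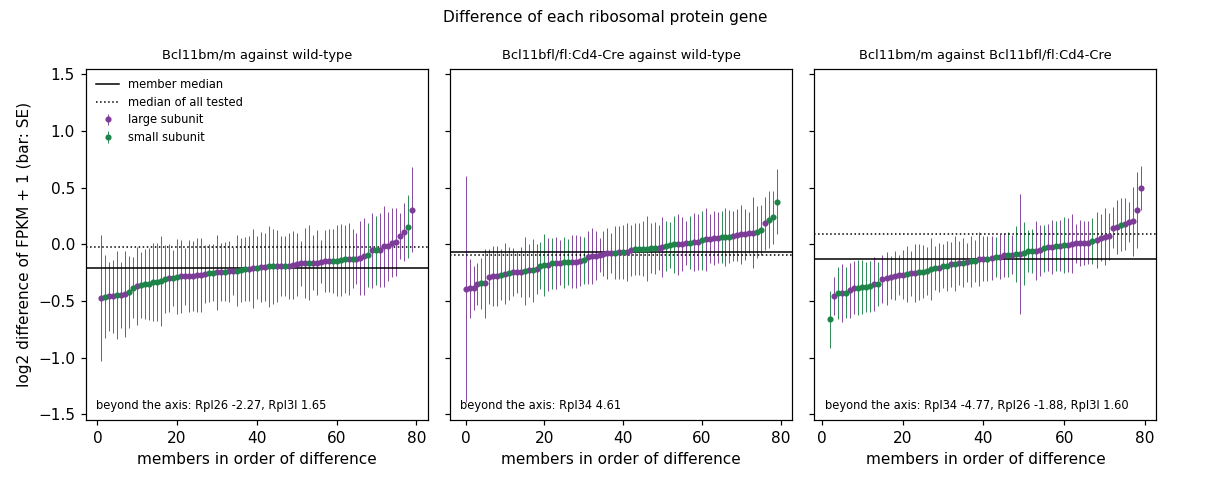
Members are ordered along the x axis by their log2 difference (y axis, bars are the standard error) in each of the 3 comparisons, with large subunit genes in purple and small subunit genes in green. The solid line is the member median (-0.21, -0.07 and -0.13) and the dotted line the median of all features; members past the axis are written in the panel.

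Rpl3l, a striated-muscle paralogue of Rpl3, was below 1 FPKM in 9 of the 12 libraries. It lies at chr17:24864774-24873094 (plus strand, mm9) and has no near-identical copy. Its level was 0.123, 0.974, 0.90, 0.209 and 0.394 FPKM in wild-type, 3.06, 5.43 and 2.82 FPKM in Bcl11bm/m, and 0.338, 0.548, 0.409 and 0.882 FPKM in the Bcl11bfl/fl:Cd4-Cre libraries. All 3 Bcl11bm/m libraries were above the other 9, at a level that remained far below the member median. At the estimated depth and the annotated length of 1039 bases, 3 fragments correspond to 0.424 to 0.722 FPKM in wild-type. Under that floor were 3 of the 5 wild-type values, and the Bcl11bm/m values correspond to 8.9 to 23.2 fragments. These conversions are approximate, because a factor of 2 in depth cannot be settled and the depth estimate used a shortened transcript length. The group means were 0.520, 3.77 and 0.544 FPKM, so the gene reached the mean of 1 FPKM that made it a member only through Bcl11bm/m, and its differences are given as a description with no test. On the log2 scale Bcl11bm/m differed from wild-type by 1.65 ± 0.25 (SE) and from Bcl11bfl/fl:Cd4-Cre by 1.60 ± 0.22, and Bcl11bfl/fl:Cd4-Cre from wild-type by 0.05 ± 0.21. Over the alternatives these Bcl11bm/m differences ran from 1.41 to 2.85 and from 1.36 to 2.6.

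Rpl3 itself, the ubiquitous gene, was at 258 ± 79.1 FPKM in wild-type (SD, n = 5), 227 ± 49.8 in Bcl11bm/m (n = 3) and 240 ± 26.5 in the Bcl11bfl/fl:Cd4-Cre libraries (n = 4). Its differences from wild-type were -0.15 and -0.06 and neither passed the test. No difference of Rpl3 was detectable against this spread.

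Among the other paralogue pairs, each partner was measured on its own row. Rpl22, which also binds RNA outside the ribosome, was at 66.0 ± 21.3 FPKM in wild-type, 64.5 ± 21.7 in Bcl11bm/m and 72.6 ± 11.1 in the Bcl11bfl/fl:Cd4-Cre libraries (SD; n = 5, 3 and 4). Rpl22l1 was at 5.26, 10.3, 13.3, 16.5 and 8.12 FPKM in wild-type, 21.4, 3.99 and 3.46 FPKM in Bcl11bm/m and 8.75, 7.16, 6.98 and 6.87 FPKM in the Bcl11bfl/fl:Cd4-Cre libraries. The Bcl11bm/m libraries held both the highest and the lowest of the 12 values, and the highest was replicate 1, the library high for the whole set. The differences of Rpl22l1 from wild-type were -0.48 ± 0.56 and -0.39 ± 0.26 (SE), and did not pass. Over the alternatives the Bcl11bm/m difference ran from -1.22 to -0.06, and none of them gave a call.

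Rpl7l1, which acts in 60S assembly, averaged 29.3, 27.3 and 27.0 FPKM in wild-type, Bcl11bm/m and Bcl11bfl/fl:Cd4-Cre, beside 718, 595 and 730 FPKM of Rpl7. Rps27l, a p53 target, averaged 75.1, 59.8 and 65.5 FPKM, with differences from wild-type of -0.30 and -0.17. Its partner Rps27 has a copy row at a far higher level. Rpl36a, at 335 FPKM over all libraries, had differences of -0.15 and -0.35, and Rpl36al, outside the naming rule, was at 255 FPKM. Rpl39 (221 FPKM) had differences of -0.44 and -0.34 beside its nearly silent paralogue Rpl39l. Rps4x, on the X chromosome, had differences of -0.23 and -0.03, and Rpl10, also X-linked with a testis paralogue, -0.46 and 0.00. None of the members in this paragraph passed the test in either comparison with wild-type.

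Rpl34 showed the largest difference of any member. The gene lies at chr3:130429749-130433316 (minus strand, mm9) and encodes a large subunit protein. It was at 7.55, 7.22, 8.51, 7.78 and 5.95 FPKM in wild-type and 12.2, 4.54 and 4.71 FPKM in Bcl11bm/m, but at 188, 57.8, 425 and 360 FPKM in the Bcl11bfl/fl:Cd4-Cre libraries. The Cd4-Cre libraries were all above the others and spread widely among themselves. The difference from wild-type was 4.61 ± 0.49 (SE; limma adjusted p = 0.00145), and that of Bcl11bm/m from Bcl11bfl/fl:Cd4-Cre was -4.77 ± 0.69 (limma adjusted p = 0.0107), a call that was lost in the fit with a replicate block (adjusted p = 0.0773).

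The row of its copy, Rpl34-ps1, ran at 438, 747, 758, 1062 and 726 FPKM in wild-type, 863, 545 and 614 FPKM in Bcl11bm/m, and 571, 848, 554 and 542 FPKM in the Bcl11bfl/fl:Cd4-Cre libraries. The sum of both rows was 753 ± 221 FPKM (SD, n = 5), 681 ± 171 FPKM (n = 3) and 886 ± 91.9 FPKM (n = 4), and here the groups overlapped. Rpl34 made up 0.73 to 1.70% of that sum in the 8 newborn libraries and 24.8, 6.38, 43.4 and 39.9% in the Cd4-Cre libraries. When each of the 4 genes was summed with its copy row, an alternative chosen after these values were seen, the Rpl34 difference from wild-type became 0.28 ± 0.24 (limma adjusted p = 0.456) and no member was called in that comparison (0 of 81). The difference of Bcl11bm/m from Bcl11bfl/fl:Cd4-Cre became -0.40 ± 0.20 (adjusted p = 0.237). In the centred fit described below, the summed Rpl34 departed from the member median by 0.35 ± 0.08 (adjusted p = 0.0241) in the Cd4-Cre group, against 4.67 for the gene row alone. The call was thus present on the gene row and absent on the sum of both rows. In the Cd4-Cre group against wild-type, the departure was called on both. From mutant to mutant, the departure was called on the gene row (-4.62) but not on the sum (-0.31, limma adjusted p = 0.104). How fragments were assigned between the rows was not tested. Estimated depth was higher in each Cd4-Cre library than in any other, but an unsettled factor of 2 leaves the order of the nearest libraries undecided. The library with the highest estimate, Cd4-Cre replicate 1 at 44970000 fragments, did not have the largest Rpl34 share. Whether depth, read layout or genotype moved the split was not tested.

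**Figure D3:**
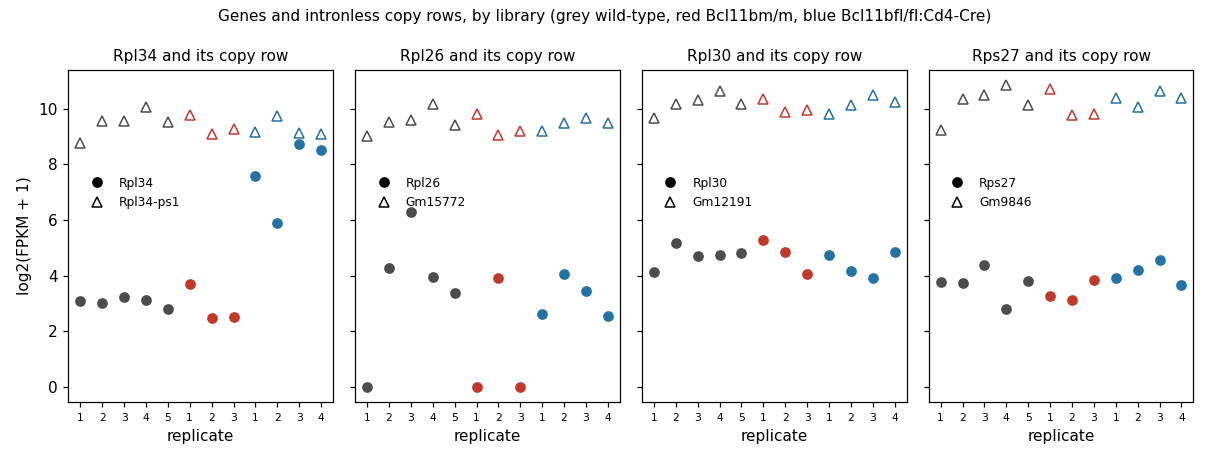
Filled circles are the gene and open triangles the intronless copy row, as log2(FPKM + 1) by library (x axis, replicate number; colours for group). Rpl34 lies nearer to its copy row in the 4 Bcl11bfl/fl:Cd4-Cre libraries than in the other 8, and Rpl26 is near 0 in 3 libraries and at 76.4 FPKM in wild-type replicate 3.

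Rpl26, a large subunit protein at the tunnel exit, was listed below 0.01 FPKM in wild-type replicate 1 and Bcl11bm/m replicates 1 and 3, and at 76.4 FPKM in wild-type replicate 3, where it made up 9.06% of its sum with Gm15772, against at most 2.59% in the other 11 libraries. Its copy row was at 513 to 1150 FPKM throughout, and which row holds the fragments of Rpl26 was not tested. Its fitted differences of -2.27 and -0.40 from wild-type did not pass the test. Rpl30 made up 0.98 to 3.02% of its sum with Gm12191, and Rps27 0.32 to 2.09% of its sum with Gm9846. With the rows summed, means in wild-type, Bcl11bm/m and Bcl11bfl/fl:Cd4-Cre were 791, 667 and 718 FPKM for Rpl26, 1217, 1096 and 1184 FPKM for Rpl30, and 1275, 1146 and 1341 FPKM for Rps27, all above the member median of 475 FPKM.

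Because the set moves as a block, departures were measured by subtracting each library's member median and fitting the same model to all features. In Bcl11bm/m against wild-type 11.8% of all features were called in this centred fit, 9.32% higher and 2.52% lower, and 4 members, all higher: Rpl38 (0.52), Rps24 (0.37), Rpl23 (0.32) and Rpl3l (1.86), the last of which passed the filter only through Bcl11bm/m. In Bcl11bfl/fl:Cd4-Cre against wild-type 8.2% of all features were called, 3.14% higher and 5.06% lower, and 3 members, among them Rpl34 (4.67), which was higher, and Rpl23 (-0.33), which was lower. In Bcl11bm/m against Bcl11bfl/fl:Cd4-Cre 6.27% of all features were called, 5.62% higher and 0.649% lower, and 3 members: Rpl3l (1.75, under the same limit) and Rpl23 (0.65), higher, and Rpl34 (-4.62), lower. Rpl34 lost this last call when summed with its copy row (-0.31, limma adjusted p = 0.104). In each comparison the share of members called, at most 4 of 81, was below that of all features. Centring on the members' own median itself sets the members near 0, so nothing is read from these lower shares. Median departures were 0.005, -0.009 and 0.024 over the members in the 3 comparisons, and 0.19, -0.03 and 0.242 over all features.

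Rpl23, a conserved large subunit protein near the subunit interface that also binds Mdm2, was the member with a departure in all 3 comparisons. It lies at chr11:97638841-97643751 (minus strand, mm9). Relative to the member median, its log2 level was -0.01, -0.12, 0.00, -0.13 and -0.09 in wild-type, 0.27, 0.22 and 0.27 in Bcl11bm/m, and -0.34, -0.46, -0.39 and -0.39 in the Bcl11bfl/fl:Cd4-Cre libraries. The groups did not overlap, with Bcl11bm/m at the top, wild-type between and Bcl11bfl/fl:Cd4-Cre at the bottom. In FPKM these were 334, 460, 527, 663 and 469 in wild-type, 694, 426 and 468 in Bcl11bm/m, and 334, 340, 413 and 384 in Bcl11bfl/fl:Cd4-Cre, where wild-type overlaps both mutants and only the centring separates it.

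The departure between the mutants was 0.65 ± 0.09 (SE; limma adjusted p = 0.00708). It kept its direction and its call in each of 15 alternatives, with values from 0.59 to 0.67 and adjusted p from 0.000784 to 0.0474. The departures from wild-type were weaker: 0.32 ± 0.09 for Bcl11bm/m (adjusted p = 0.0406, range 0.0125 to 0.547 over the alternatives), which lost its call in 10 of 16 alternatives, and -0.33 ± 0.07 for Bcl11bfl/fl:Cd4-Cre (adjusted p = 0.0261, range 0.0159 to 0.11), which lost it in 9 of 17, with no change of direction. Rpl23 has 1 intronless copy, at chr6:66825315-66825737, with 1 mismatch over 423 coding bases; no row of the table lay over it, and its part was not tested. The snoRNA row within Rpl23, Snora21, was listed at 27.3 FPKM in wild-type replicate 1 and at 12.7 and 17.7 FPKM in replicates 1 and 2 of the Bcl11bfl/fl:Cd4-Cre group, and at 0 in the other 9 libraries.

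**Figure D4:**
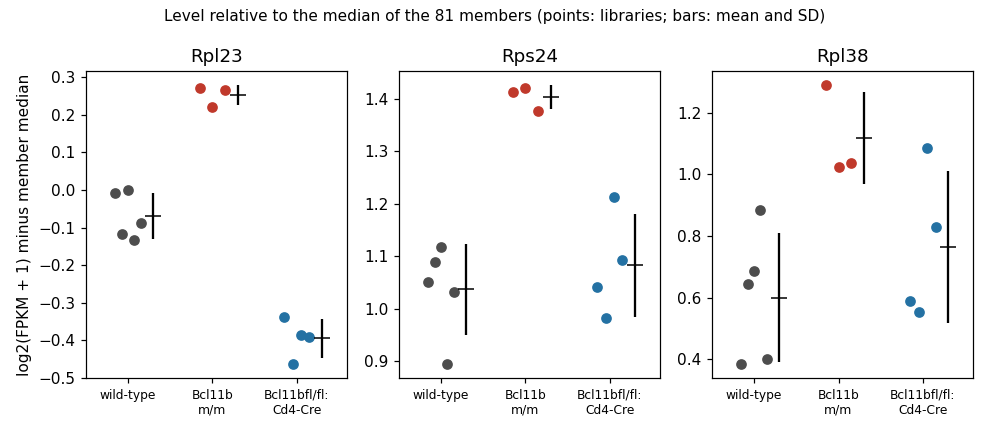
Points are libraries, with the log2 level minus the member median on the y axis and the group on the x axis; bars give the mean and SD. Rpl23 separates all 3 groups, and Rps24 and Rpl38 have their highest mean in Bcl11bm/m.

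Rps24, a small subunit protein needed for pre-rRNA processing (chr14:25309903-25315368, plus strand), was at 1.05, 1.09, 1.12, 0.90 and 1.03 above the member median in wild-type and at 1.41, 1.42 and 1.38 in Bcl11bm/m, with no overlap. Its departure of 0.37 ± 0.08 (limma adjusted p = 0.0191) lost its call in 6 of 16 alternatives (adjusted p 0.00755 to 0.411). In FPKM the groups were 698 to 1350 and 980 to 1530 and overlapped.

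Rpl38, a small large-subunit protein known from homeobox mRNA translation in the embryo (chr11:114529838-114533645, plus strand), was at 0.39, 0.65, 0.69, 0.88 and 0.40 above the median in wild-type and at 1.29, 1.03 and 1.04 in Bcl11bm/m. The Bcl11bfl/fl:Cd4-Cre values were 0.59, 0.55, 1.08 and 0.83, which overlap both. Its departure of 0.52 ± 0.13 from wild-type (limma adjusted p = 0.0308) lost its call in 7 of 16 alternatives (adjusted p 0.0137 to 0.163).

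Among members with a mean of at least 100 FPKM in both groups compared, 70 with an annotated transcript, the departure from the median had no marked relation to gene properties. Spearman's rho across these genes, which are not independent replicates, lay between -0.15 and 0.13 for transcript length, coding length and number of copies over the 3 comparisons. Members that host a snoRNA by annotation, 30 of 80, had a median difference in Bcl11bm/m of -0.19, beside -0.23 for the 50 that do not. In Bcl11bfl/fl:Cd4-Cre these were -0.08 and -0.04.

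The balance between the subunits was described by the summed FPKM of large over small subunit members. The ratio was 1.29, 1.27, 1.33, 1.29 and 1.30 in wild-type, 1.35, 1.35 and 1.34 in Bcl11bm/m, and 1.25, 1.25, 1.27 and 1.29 in the Bcl11bfl/fl:Cd4-Cre libraries. The 3 Bcl11bm/m values were above the other 9, by as little as 0.01, while the other groups overlapped. With the copy rows added to their genes the ratio was 1.31 to 1.37 in wild-type, 1.38 to 1.40 in Bcl11bm/m and 1.27 to 1.33 in the Bcl11bfl/fl:Cd4-Cre libraries, with the same order. The ratio of the subunit medians, taken over members of at least 100 FPKM, was 0.85 to 0.96 in wild-type, 0.94 to 0.99 in Bcl11bm/m and 0.85 to 0.93 in the Bcl11bfl/fl:Cd4-Cre group, so that here Bcl11bm/m overlapped wild-type. No test was made on these sums over members.

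**Figure D5:**
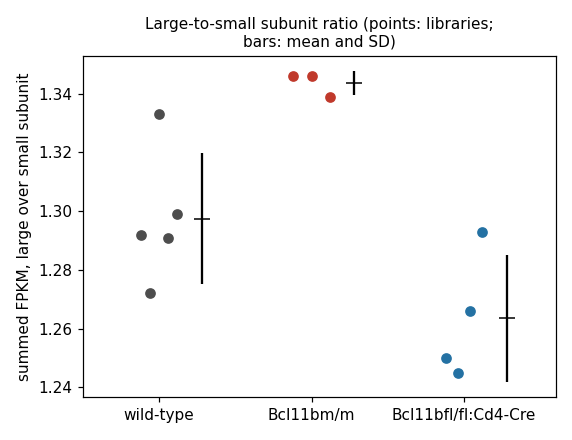
Points are the libraries' summed FPKM of the 49 large subunit members divided by that of the 32 small subunit members, by group, with the mean and SD beside them; the y axis does not start at 0. Bcl11bm/m lies at 1.34 to 1.35, Bcl11bfl/fl:Cd4-Cre at 1.25 to 1.29.

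Other genes of the translation machinery were followed through lists chosen by function. The 20 translation factors and other TOP mRNAs, such as Eef1a1 and Tpt1, had a median difference of -0.17 in Bcl11bm/m against wild-type (20 of 20 below 0, 0 called by limma), beside a member median of -0.21. Over all features 52.3% lay below 0 and 17.3% were called in that comparison. In Bcl11bfl/fl:Cd4-Cre the median was -0.06, beside a member median of -0.07. There, 2 fell, against 9.86% of all features called lower, the histone chaperone Nap1l1 (-0.61, from 179 to 118 FPKM, adjusted p = 0.0341) and the splicing factor Hnrnpa1 (-0.88, from 45.0 to 22.6 FPKM, adjusted p = 0.0435). Their summed level was 6069 to 11699 FPKM in wild-type, 6574 to 9736 FPKM in Bcl11bm/m and 7610 to 9961 FPKM in the Bcl11bfl/fl:Cd4-Cre libraries. Of the ubiquitin and Fau fusion genes and Rack1, which supply the remaining ribosomal proteins, 3 were tested and 0 were called by limma in either comparison with wild-type.

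Among ribosome assembly genes, single members were called in both directions. Of 40 measured, 2 rose and 3 fell in Bcl11bm/m against wild-type, where 17.3% of all features were called, with a median of 0.07; Polr1b, a subunit of RNA polymerase I, rose from 2.30 to 5.70 FPKM (1.02, limma adjusted p = 0.00292), and Tcof1, the nucleolar factor treacle, fell from 90.3 to 46.2 FPKM (-0.95, adjusted p = 0.000941). In Bcl11bfl/fl:Cd4-Cre 2 rose and 7 fell, where 14.5% of all features were called, with a median of -0.13; the snoRNP proteins Nop58 (from 32.7 to 16.5 FPKM, -0.95, adjusted p = 0.00672) and Dkc1 (from 20.4 to 11.7 FPKM, -0.75, adjusted p = 0.00588) and the 40S assembly factor Bysl (from 30.0 to 12.9 FPKM, -1.07, adjusted p = 0.0362) were among those that fell. In Bcl11bm/m against Bcl11bfl/fl:Cd4-Cre 5 were higher and 1 lower, where 10.2% of all features were called. Myc, a transcription factor that drives ribosome synthesis, rose in Bcl11bm/m from 9.47 to 38.8 FPKM (1.89, adjusted p = 0.00092), and Rptor, the mTORC1 scaffold, from 16.3 to 27.9 FPKM (0.75, adjusted p = 0.0031). These were the 2 calls among the 11 regulators tested, a share near the 17.3% of all features called, and the members' median in the same comparison was -0.21. In Bcl11bfl/fl:Cd4-Cre against wild-type Rptor was higher (22.3 FPKM, limma adjusted p = 0.0347) and Rps6kb1, an S6 kinase, was lower (17.0 against 25.2 FPKM, adjusted p = 0.0386).

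Mitochondrial ribosomal protein genes, whose products act in a separate ribosome, had medians of -0.17 in Bcl11bm/m and -0.26 in Bcl11bfl/fl:Cd4-Cre against wild-type, with 61 and 69 of 76 below 0. Of these, 1 fell in Bcl11bm/m (Mrps6, from 13.0 to 3.54 FPKM, -1.60, limma adjusted p = 0.00147) and 5 fell in Bcl11bfl/fl:Cd4-Cre, with Mrpl55 (-0.89), Mrps5 (-0.79) and Mrpl1 (-0.61) showing the largest differences. Of all features 7.39% and 9.86% were called lower in these comparisons, so both counts of 76 were below that share. None was called higher (0 in limma) in either.

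Marker genes of other stages and cell types also differed between the groups. Bulk levels do not tell a change in cell makeup from a change within cells, and the part of either in the member levels was not tested. Markers of cycling DP blasts fell, 12 of 16 in Bcl11bm/m and 15 of 16 in Bcl11bfl/fl:Cd4-Cre, with summed levels of 1046 to 1423 FPKM in wild-type, 462 to 842 FPKM in Bcl11bm/m and 259 to 723 FPKM in the Bcl11bfl/fl:Cd4-Cre libraries. Ccna2, a cyclin of S and G2 phase, fell from 80.5 to 31.4 and 17.9 FPKM. Of 7 tested post-selection genes, 4 rose and 1 fell in Bcl11bm/m, and 3 rose and 2 fell in Bcl11bfl/fl:Cd4-Cre. Of all features 17.3 and 14.5% were called in these comparisons. S1pr1 and Il7r, among those that rose in both, were at 0.0216 and 0.0475 FPKM in wild-type. Both passed the 1 FPKM filter only through the mutants, so nothing is read from their calls. Among markers of other cells, summed levels in wild-type, Bcl11bm/m and Bcl11bfl/fl:Cd4-Cre libraries were 14.6 to 22.0, 9.62 to 38.3 and 12.9 to 39.1 FPKM for B cells (4 of 8 genes tested), 11.4 to 16.2, 23.7 to 74.5 and 4.94 to 10.1 FPKM for myeloid cells (6 of 9), 18.5 to 71.1, 215 to 416 and 66.4 to 185 FPKM for NK cells (3 of 7), 2.37 to 34.6, 10.6 to 29.8 and 0.85 to 5.07 FPKM for erythroid cells (3 of 7), and 41.0 to 68.3, 144 to 165 and 83.4 to 129 FPKM for thymic stroma (3 of 9). Of the tested NK genes, Gzma (from 36.3 to 276 FPKM, adjusted p = 0.00309) and Prf1 (from 2.45 to 5.12 FPKM, adjusted p = 0.0264) were called higher in Bcl11bm/m than in wild-type by limma. Klrb1c was at 0.155 FPKM in wild-type and 4.22 FPKM in Bcl11bm/m. It passed the 1 FPKM filter only through the mutants, so nothing is read from its call. The myeloid gene Tyrobp (from 1.30 to 14.3 FPKM) was also higher there. Mpeg1, at 0.711 FPKM in wild-type and 2.74 FPKM in Bcl11bm/m, passed the filter only through Bcl11bm/m, so nothing is read from its calls. In the Cd4-Cre group Gzma was higher (110 FPKM) and Prf1 lower (0.946 FPKM), and the myeloid gene Lyz2 (0.544 against 5.38 FPKM) was lower. Mpeg1 was at 0.0971 FPKM there. The B cell genes Cd79a (2.0 against 0.383 FPKM) and Blk (3.68 against 0.0921 FPKM) passed the filter only through mutant libraries. Nothing is read from their calls. Of the stromal genes, Pecam1, which endothelium and some blood cells express, was at 53.8 FPKM in wild-type and higher in both mutants (150 and 106 FPKM). The epithelial gene Epcam was at 3.04 FPKM in wild-type and lower in both (0.303 and 0.786 FPKM). Epcam passed the filter only through wild-type, so nothing is read from its calls. Cd79b, a B cell receptor gene, was detected in all 12 libraries and reached 21.7 FPKM. Some defining markers were low or at 0: Ncr1 (NK cells) was listed at 0 in 11 of 12 libraries, S100a8 (neutrophils) in 10 and Foxn1 (thymic epithelium) in 10, and Pax5 (B cells) reached at most 0.562 FPKM.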

How the data were processed

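RNA-seq of sorted thymocytes from 12 samples was used. Per the submitters' processing notes the authors aligned reads with TopHat2 2.8.0 and computed FPKM with Cufflinks 2.1.1 on mm9, and deposited a single table of FPKM per symbol. The submitters' extraction text describes another sort (DN NKT cells) than the sample source, the descriptions and the study's methods, on which the cell identity given here rests. It also names another library kit than those methods, so chemistry and strandedness are uncertain, and how Cufflinks shared multiply mapped reads is not given in the sources used here. No sample column was left unused.

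Values were taken as log2(FPKM + 1). Features averaging 1 FPKM or more were tested with limma 3.58.1 in R 4.3.3 (lmFit, eBayes with a trend, two-sided), each pair of groups on its own, with Benjamini-Hochberg adjustment over all features and a threshold of 0.05. Centred fits first subtracted each library's member median. The scripts were tested on simulated data. Coding sequences were aligned with blastn 2.17.0. Depth was estimated from the steps between low FPKM values; 58.3 to 66.8% of the values used lay within 0.1 of a whole fragment, against 20% if evenly spread, and a factor of 2 cannot be settled.

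The members, gene lists and tests were chosen with earlier results of these data known. Named genes were the paralogues and their parents, the stalk genes and Rpsa, Rpl5, Rpl11, Rps6, Rps14 and Rps19, up to 5 members called in each direction and fit, the 5 highest and lowest members, and up to 3 called genes of each list. Alternatives varied the pseudocount (0.1), the filter (none, 5 FPKM), the scaling, the groups fitted and the libraries kept. Some results are not reported here.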

Additional observations from a re-analysis of the deposited data

Results flagged for a closer look

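Among 31 values looked at in wild-type and in the Cd4-Cre group, 4 of 62 groups of values held a library whose gap to its nearest neighbour was large against the range of its group; chance alone gives about 1 in 20. Rpl26 stood at 76.4 FPKM in wild-type replicate 3, against 0.0012 to 18.5 FPKM in the other 4. Rpl10 stood at 305 FPKM in Bcl11bfl/fl:Cd4-Cre replicate 3, against 236 to 247 FPKM in the others. Rpl7 stood at 658 FPKM in Bcl11bfl/fl:Cd4-Cre replicate 1, against 751 to 757 FPKM. Rpl22l1 stood at 8.75 FPKM in the same library, against 6.87 to 7.16 FPKM.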

How the results depend on the processing

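The counts of members called were small, so single genes move them. For Bcl11bm/m against wild-type (1 called), the 5 FPKM filter, which removes Rpl3l, and the replicate block gave 0. For Bcl11bfl/fl:Cd4-Cre against wild-type (1), summing the copy rows gave 0. For Bcl11bm/m against Bcl11bfl/fl:Cd4-Cre (2), the 5 FPKM filter and summed copy rows gave 1, the replicate block 0, and median-ratio scaling and removal of short RNA rows 3 each, with Rpl10 added as lower (adjusted p = 0.122 as reported, 0.0238 to 0.369 over the alternatives). Leaving out single libraries gave 1 throughout in the first comparison, 1 to 2 in the second (Rpl23 was added, lower, without wild-type replicate 1) and 2 to 9 in the third.

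Departure counts were less stable. In Bcl11bm/m against wild-type (4), no filter and summed copy rows gave 2, the replicate block 0, and leaving out single libraries 0 (without Bcl11bm/m replicate 2) to 4. In Bcl11bfl/fl:Cd4-Cre against wild-type (3), no filter, the replicate block and summed copy rows each gave 1, and leaving out libraries 1 to 3. Between the mutants (3), fitting all 3 groups together gave 6 and leaving out libraries 2 to 8 (8 without Bcl11bm/m replicate 1). There the 5 FPKM filter called Rpl23 and Rpl34, summed copy rows called Rpl23 and Rpl3l, and the replicate block added Rpl26 as lower. The cause of these moves was not tested, other than that fewer libraries or features enter some fits.

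Median differences ranged, over left-out libraries, from -0.42 to -0.08, from -0.23 to 0.08 and from -0.34 to 0.02 in the 3 comparisons. The mean share of library FPKM in Bcl11bfl/fl:Cd4-Cre was 14.1% without short RNA rows and 13.7% with copy rows added; over left-out libraries the shares were 11.3 to 12.6% in wild-type, 10.03 to 11.96% in Bcl11bm/m and 12.4 to 13.0% in Bcl11bfl/fl:Cd4-Cre. Samples with the same replicate number correlated between -0.21 and 0.15 over all features, and no label ties a number to a shared source, so the numbers were not taken to pair the samples. Over the members alone these correlations were 0.17 to 0.45 between the mutants, -0.62 to 0.69 between Bcl11bm/m and wild-type, and -0.05 to 0.15 between the Cd4-Cre group and wild-type. In the block fits 283, 456 and 30 features in all were called. No call reversed. Of the named genes' differences that were not called, 26 values under other settings, and 61 under fits that left out a library, had changed sign. Rpl3l, at few fragments, and any member under the floor of 3 fragments are limited by depth.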
